A study of Mus musculus with 6 samples.

Results

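Matricellular proteins are secreted proteins that sit in the extracellular matrix and act on cells mainly as signals rather than as load-bearing fibres. They bind integrins, other surface receptors, growth factors and proteases, and many of them are made in development, wound healing and fibrosis. Fibroblasts and smooth muscle cells are well-known sources, and embryonic endoderm makes Sparc and fibronectin. The group described here comprises 10 genes listed by name, of which 9 were measured among the 19938 genes of the series. They are the thrombospondin genes Thbs1, Thbs2 and Thbs3, the tenascin C gene Tnc, the periostin gene Postn, Sparc, the fibronectin gene Fn1, the matrix Gla protein gene Mgp and Smoc2. The listed gene Spp1, which encodes osteopontin, is paired with no probeset in the annotation used here and has no value. Each gene was represented by the probeset chosen by the highest mean over the 6 arrays, and each of the 9 had 1 probeset in any case. The genes were listed with earlier results of the comparison of shECAD with control clones known, and several of them had been seen among the largest rises. Their differences between the groups are therefore given as a description, with the fit's adjusted p beside them as a record, and they support no further statement.

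The 6 samples were mouse induced pluripotent stem (iPS) cell lines, 1 array per line, derived from OG2 embryonic fibroblasts (MEFs) that carry an Oct4-driven green fluorescent reporter. All 6 lines carried retroviral Sox2, Klf4, Oct4 and c-Myc. Control clones 2, 3 and 4 also received a hairpin against luciferase, which mouse cells do not encode, and shECAD clones 4, 8 and 9 a hairpin against E-cadherin, the adhesion protein encoded by Cdh1. Each line came from 1 colony picked on day 14 and was grown on feeder cells, which were eliminated before RNA extraction according to the labels. Whether the clones of a group came from 1 infection is not in the labels. A p-value here reflects how far these clones differed, which may be partly technical, and the number of arrays (n = 3 clones per group) limits the precision. Values are log2 expression values as deposited. The level of one gene cannot be set against that of another on this scale, so differences are read only within a gene. Where a level is set beside the median gene level or an array percentile, it is only a rough mark of weak signal. Array medians lay between 5.11 and 5.30. Cdh1, the target of the hairpin, had a log2 fold change of -2.13 (shECAD minus control, limma adjusted p = 0.00683). The 10 pluripotency markers, among them Pou5f1 and Nanog, all lay above the median control level of a gene. The largest changes among them were in Esrrb and Dppa4, at -0.81 and -0.70 on the log2 scale (limma adjusted p = 0.181 and 0.09). In 3 of the 10 every shECAD clone lay below every control clone, a share not counted over all genes. Limma called 0 of the 10 in either direction, with 4 lower and 0 higher at an unadjusted p below 0.05. The share of all genes at that unadjusted threshold was not counted, so such counts here and below have no reference.

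All 9 measured genes read higher in the shECAD clones, and in all 9 every shECAD clone lay above every control clone. After median centring of the arrays the groups of Sparc overlapped. Over all genes, 11.1% had groups that did not overlap in this direction. In the limma fit across all 19938 genes, 6 of the 9 (Thbs1, Tnc, Mgp, Postn, Thbs2 and Fn1) were called higher at an adjusted p below 0.05, 0 were called lower and 3 were not called. The share of all genes called was 1.9% in the higher direction and 1.23% in the lower direction, that is 378 and 245 genes, which became 298 and 383 after median centring. Nothing is read from these counts, since the genes were listed with this contrast known. The median log2 fold change was 1.72 for the 9 genes and 0.03 for all genes. The 9 fell into a set of 5 with at least a 3.29-fold difference and a set of 4 (Fn1, Thbs3, Sparc and Smoc2) with 1.45-fold to 1.71-fold differences.

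**Figure D1:**
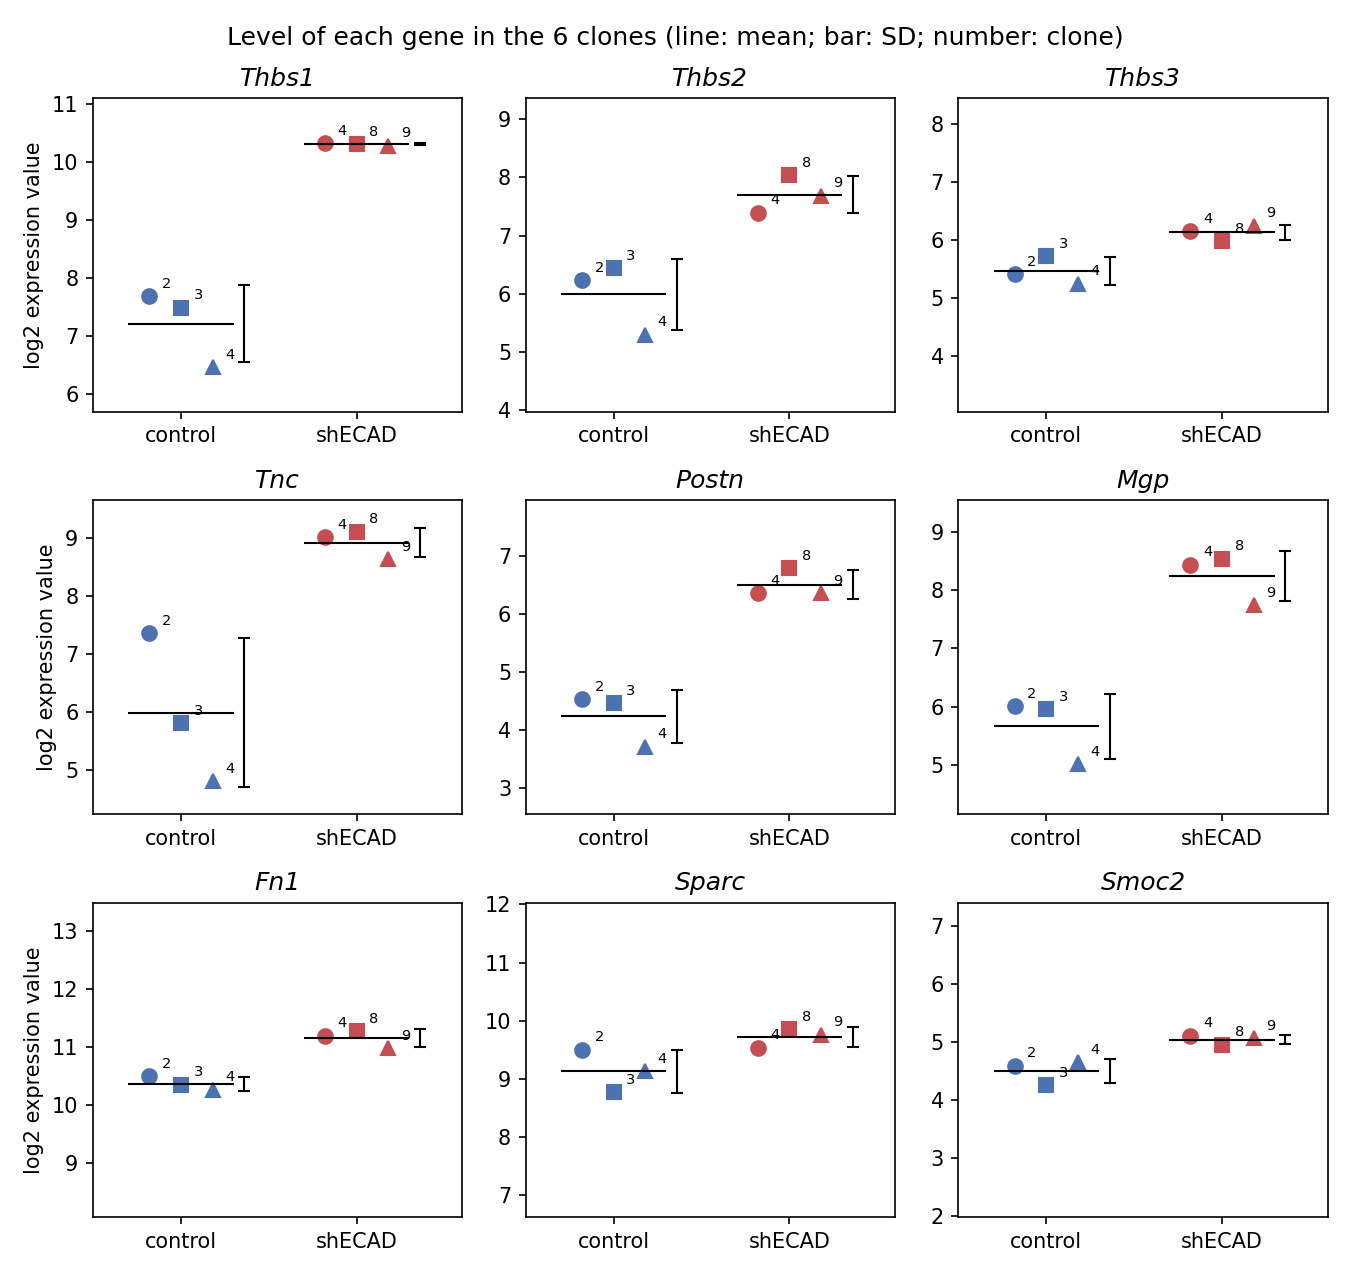
Log2 expression value (vertical axis, each panel 5.4 units high) of the 9 measured genes in the 3 control (blue) and 3 shECAD (red) clones, with the group mean as a line, the SD as a bar and clone numbers beside the points. All shECAD points lie above all control points in each panel, with the narrowest gap in Sparc (0.034) and the widest in Thbs1 (2.59).

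Thrombospondins are large calcium-binding glycoproteins. Thrombospondins 1 and 2 form trimers, inhibit the growth of blood vessels and bind the receptors CD36 and CD47, and thrombospondin 1 activates latent TGF-beta. Thrombospondin 3 belongs to the pentameric branch of the family, which lacks the repeats through which CD36 is bound. For Thbs1 (probeset 10474700), control clones 2, 3 and 4 gave 7.69, 7.49 and 6.47, while shECAD clones 4, 8 and 9 gave 10.32, 10.30 and 10.28. The 3 shECAD clones were nearly equal, within 0.043 of each other, whereas the control clones spanned 1.22. The means were 7.22 ± 0.65 and 10.30 ± 0.022 (SD, n = 3 each), a log2 fold change of 3.08 ± 0.27 (SE), or 8.48-fold with a 95% interval from 5.58-fold to 12.9-fold (limma adjusted p = 0.00282). This was the second largest of all 19938 differences in the higher direction. For Thbs2 (probeset 10447951), control clones 2, 3 and 4 gave 6.23, 6.44 and 5.29, while shECAD clones 4, 8 and 9 gave 7.39, 8.04 and 7.69. Control clone 4 was again the lowest, and the groups were 0.96 apart at their nearest clones. The log2 fold change of Thbs2 was 1.72 ± 0.28 (SE), or 3.29-fold (limma adjusted p = 0.0147). Without shECAD clone 8 the difference was 1.55 and no longer called (limma adjusted p = 0.0637). Over all genes that fit called 80 higher, against 378 with all clones. The fits without control clone 3 or 4, or shECAD clone 4 or 9, called 97 to 205 higher.

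For Thbs3 (probeset 10493449), control clones 2, 3 and 4 gave 5.41, 5.72 and 5.25, while shECAD clones 4, 8 and 9 gave 6.16, 5.98 and 6.25. The nearest clones of the groups were 0.26 apart. Its log2 fold change of 0.67 ± 0.17 (SE) had a 95% interval from 0.29 to 1.05 and was not called (limma adjusted p = 0.068). It was called among brighter genes alone (adjusted p = 0.0404 in limma) and with array weights (adjusted p = 0.0279 in limma). The interval of Thbs3 lay below that of Thbs1, which ran from 2.48 to 3.69, and just below that of Thbs2, which ran from 1.09 to 2.34. No test of the differences between these genes was made.

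Tenascin C is a six-armed glycoprotein that weakens the adhesion of cells to fibronectin, and periostin binds collagen, tenascin C and integrins in connective tissue under mechanical load. For Tnc (probeset 10513739), control clones 2, 3 and 4 gave 7.35, 5.81 and 4.81, while shECAD clones 4, 8 and 9 gave 9.01, 9.11 and 8.63. The control clones spanned 2.54, the widest range among the 9 genes, and the shECAD clones 0.48. The means were 5.99 ± 1.28 and 8.92 ± 0.25 (SD, n = 3 each). Tnc thus differed by a log2 fold change of 2.92 ± 0.49 (SE), or 7.58-fold, with a 95% interval from 3.59-fold to 16.0-fold (limma adjusted p = 0.0153). It was not called without shECAD clone 4 (adjusted p = 0.0509) or shECAD clone 8 (adjusted p = 0.0641), nor in limma with an intensity trend and a robust prior (adjusted p = 0.0724) or with every probeset tested (adjusted p = 0.0503). Its size was 2.33 when control clone 4 was dropped and 3.60 when control clone 2 was. These 2 control clones set the ends of the range.

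For Postn (probeset 10492021), control clones 2, 3 and 4 gave 4.53, 4.47 and 3.72, while shECAD clones 4, 8 and 9 gave 6.36, 6.79 and 6.35. The value of control clone 4 lay below the 25th percentile of its array (3.85), and all other values lay above the 25th percentiles of theirs. Postn differed by a log2 fold change of 2.26 ± 0.23 (SE), or 4.79-fold with an interval from 3.36-fold to 6.84-fold (limma adjusted p = 0.00282). It stayed called with any 1 of the 6 clones left out.

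Matrix Gla protein is a small vitamin K-dependent protein that prevents calcification of arteries and cartilage. For Mgp (probeset 10548879), control clones 2, 3 and 4 gave 6.01, 5.96 and 5.01, while shECAD clones 4, 8 and 9 gave 8.44, 8.54 and 7.75. Control clone 4 and shECAD clone 9 were the low clones of their groups, 0.95 and 0.69 below the next clone. Mgp differed by a log2 fold change of 2.58 ± 0.29 (SE), or 6.00-fold with an interval from 3.85-fold to 9.35-fold (limma adjusted p = 0.00425). Like Thbs1 and Postn, it stayed called with any 1 clone left out.

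Fibronectin is an abundant adhesive glycoprotein of the matrix and the ligand of several integrins. For Fn1 (probeset 10355403), control clones 2, 3 and 4 gave 10.50, 10.35 and 10.26, while shECAD clones 4, 8 and 9 gave 11.19, 11.27 and 10.97. The clones of each group lay close together, with SDs of 0.12 and 0.16, and the groups were 0.47 apart. The log2 fold change was 0.78 ± 0.16 (SE), or 1.71-fold (limma adjusted p = 0.0302). Fn1 was called in 2 of the 6 fits that left out a clone, with adjusted p-values from 0.0378 to 0.131 in limma. Leaving out either of control clones 3 and 4, or shECAD clone 4 or 8, ended the call, as did testing every probeset (limma adjusted p = 0.0557).

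Sparc, or osteonectin, is a collagen-binding protein that reduces cell adhesion, and Smoc2 encodes a calcium-binding relative of it. For Sparc (probeset 10386058), control clones 2, 3 and 4 gave 9.50, 8.77 and 9.13, while shECAD clones 4, 8 and 9 gave 9.54, 9.86 and 9.76. Control clone 2 and shECAD clone 4 differed by only 0.034. The log2 fold change of 0.59 ± 0.20 (SE) was not called (limma adjusted p = 0.152). For Smoc2 (probeset 10441902), control clones 2, 3 and 4 gave 4.59, 4.26 and 4.65, while shECAD clones 4, 8 and 9 gave 5.11, 4.95 and 5.07. The log2 fold change of 0.54 ± 0.16 (SE) was not called either (limma adjusted p = 0.104). For both genes the 95% interval lay above 0 before adjustment for all genes, from 0.14 to 1.03 for Sparc and from 0.18 to 0.897 for Smoc2.

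**Figure D2:**
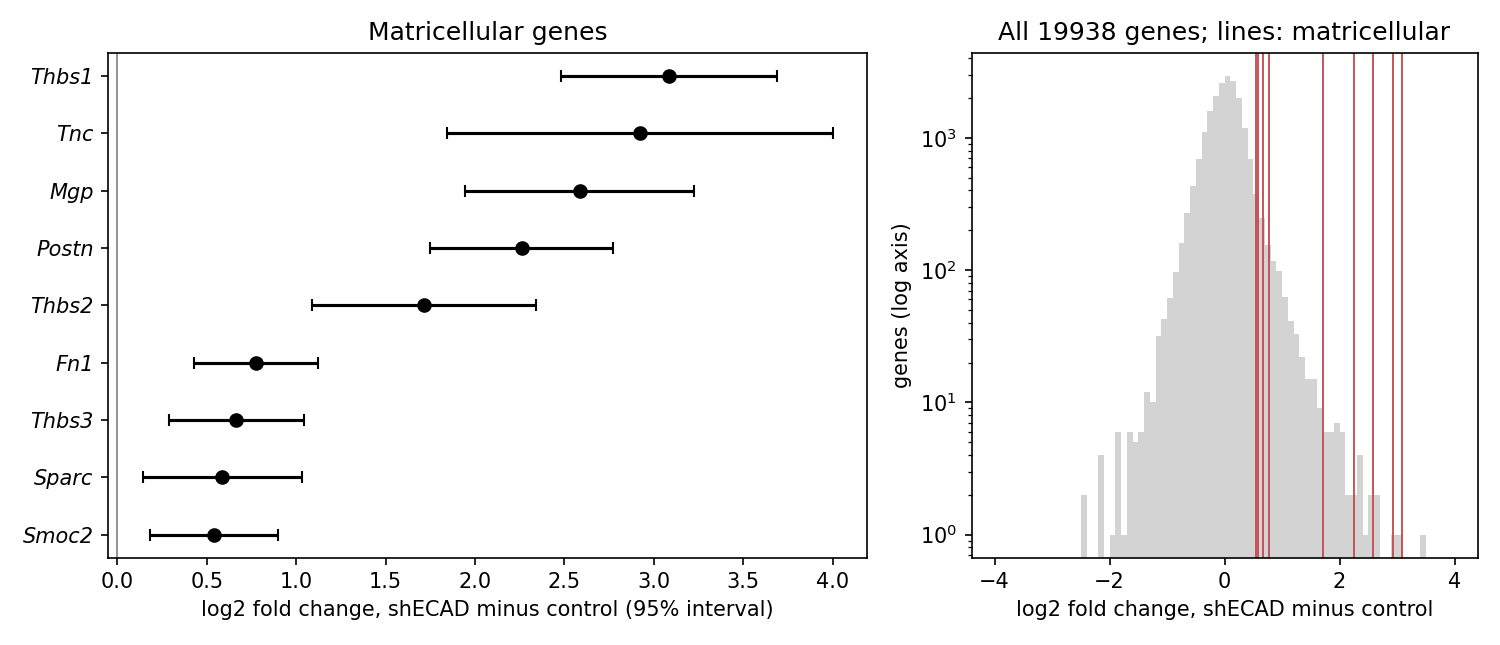
Left, log2 fold change (shECAD minus control) of each measured gene with its 95% interval from the limma fit; right, the distribution of the log2 fold change over all 19938 genes on a log axis of gene counts, with the 9 genes as red lines. Thbs1 (3.08) and Tnc (2.92) lie at the upper end of all genes, and Smoc2 (0.54), Sparc (0.59), Thbs3 (0.67) and Fn1 (0.78) lie in the upper shoulder.

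The spread between clones differed between the groups. The SD over the control clones was larger than that over the shECAD clones in 8 of the 9 genes, Fn1 being the exception, against 46.9% of all genes. The median SD of the 9 genes was 0.45 over control clones and 0.17 over shECAD clones, whereas over all genes it was 0.19 and 0.20. Control clone 4 was the lowest control clone in 7 of the 9 genes, against 29.2% of all genes, and control clone 3 was the lowest in Sparc and Smoc2. Control clone 2 was the highest control clone in 6 of the 9, against 37.2% of all genes. Among the shECAD clones, clone 8 was the highest in 6, against 28.4% of all genes, and clone 9 the lowest in 5, against 33.9%. The mean over the 9 genes came to 6.87, 6.58 and 6.07 for control clones 2, 3 and 4, while shECAD clones 4, 8 and 9 averaged 8.17, 8.32 and 8.08. The members share their arrays and clones, so these counts are no independent observations. The mean of the 20 fibroblast and feeder markers described below had the same order of control clones (6.33, 5.91 and 5.25 for clones 2, 3 and 4). That order is thus not particular to the 9 genes. All of those markers but Thy1 and Pdgfrb also had the larger SD over control clones, for example Col1a1 (0.85, against 0.10). Thy1 had 0.096, against 0.30, and Pdgfrb had 0.37, against 0.51. The wider spread over control clones is thus not particular to the 9 genes either.

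The start-site regions of Tnc, Postn and Thbs2, which are among the genes with the larger differences, are shown. TGF-beta-responsive SMAD factors and actin-linked factors are known to act on matrix genes, and their part here was not tested. RefSeq promoters (250 bases before to 50 after an annotated start, build GRCm38.p6) were found for 6 of the 10 listed genes, as 9 sequences. None was found for Thbs1, Mgp, Fn1 or Smoc2. Those of Tnc, Postn and Thbs2 are printed 5′ to 3′ on the strand of the gene, with capitals marking CAGACA (a SMAD-type element), TATAAA and TATATA, each searched on both strands.
Tnc promoter, chr4:64046887-64047186, minus strand: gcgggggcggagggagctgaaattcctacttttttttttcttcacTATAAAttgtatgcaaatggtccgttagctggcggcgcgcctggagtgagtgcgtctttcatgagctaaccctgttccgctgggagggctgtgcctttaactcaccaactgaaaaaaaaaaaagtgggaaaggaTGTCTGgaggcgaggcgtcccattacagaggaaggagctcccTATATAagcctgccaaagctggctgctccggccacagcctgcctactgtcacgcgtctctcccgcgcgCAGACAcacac
Postn promoter, chr3:54360857-54361156, plus strand: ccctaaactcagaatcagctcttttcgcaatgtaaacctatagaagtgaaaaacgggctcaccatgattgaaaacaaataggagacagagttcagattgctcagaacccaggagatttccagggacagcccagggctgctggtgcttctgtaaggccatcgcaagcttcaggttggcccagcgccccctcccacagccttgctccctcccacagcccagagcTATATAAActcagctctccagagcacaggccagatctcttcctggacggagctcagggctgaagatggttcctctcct
Thbs2 promoter, chr17:14694213-14694512, minus strand: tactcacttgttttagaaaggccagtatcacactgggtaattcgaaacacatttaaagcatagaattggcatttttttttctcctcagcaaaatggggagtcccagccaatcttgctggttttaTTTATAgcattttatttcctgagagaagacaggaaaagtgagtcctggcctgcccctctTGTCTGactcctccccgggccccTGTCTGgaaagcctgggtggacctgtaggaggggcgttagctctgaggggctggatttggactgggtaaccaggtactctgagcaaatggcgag
Start positions count from 1 at the 5′ end, the gene's start follows base 250, and a match may be on either strand. The Tnc window, which is one of 2 in the table, holds CAGACA at bases 180 and 290, TATAAA at base 46 and TATATA at base 222. In the Postn window, also one of 2, TATATA at base 223 overlaps TATAAA at base 225, and CAGACA does not occur. The Thbs2 window holds CAGACA at bases 184 and 207 and TATAAA at base 125. CAGACA was present in 5 of the 9 sequences of listed genes, which belong to Tnc, Thbs2, Sparc and Spp1, and in 21.0% of all 32851 promoters. TATAAA was present in 5 of the 9 and in 13.6% of all, and TATATA in 2 of the 9 and in 5.67% of all. The 2 Tnc sequences overlap and share matches. The AP-1 element TGANTCA, the TEAD element GGAATG and the CArG box of serum response factor were in 0 of the 9, and in 7.81%, 14.7% and 1.63% of all promoters. A match is a description of the letters in the window and shows no binding. The motifs were chosen with the differences known, and TATATA after the sequences had been read.

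Of 28 further measured genes of the matricellular family, 4 were called higher in the shECAD clones and 0 lower (14.3% called higher, against 1.9% of all genes). At an unadjusted limma p below 0.05, 11 were higher and 0 lower. Ecm1, which encodes a secreted matrix glycoprotein, rose 2.82-fold, or 1.49 ± 0.31 (SE) on the log2 scale (limma adjusted p = 0.0339). Ccn4, a gene of the CCN family also known as Wisp1, rose 2.47-fold (limma adjusted p = 0.012) and kept its call with any 1 clone left out. Cthrc1, a gene of injured vessels and fibroblasts, rose 2.26-fold, and Lgals1, which encodes the lectin galectin 1, rose 2.12-fold (limma adjusted p = 0.0302 and 0.0308). The best-known CCN genes, Ccn1 and Ccn2, differed by 0.03 and -0.12 on the log2 scale, with limma adjusted p-values of 0.97 and 0.799. Their 95% intervals ran up to 0.66 and 0.32. Of the other thrombospondins, Thbs4 had a log2 fold change of 0.51 and Comp one of 0.21, and of the other tenascins, Tnn, Tnxb and Tnr had 0.24, 0.06 and 0.03. Smoc1, the closest relative of Smoc2, had one of -0.35, and Sparcl1, a relative of Sparc, one of 0.89 (limma adjusted p = 0.362 and 0.0635). The median of the 28 was 0.23. The 4 calls became 1 (Ccn4) when control clone 4, or shECAD clone 4 or 8, was left out, and 2 without control clone 3 (Ccn4 and Cthrc1) or shECAD clone 9 (Ccn4 and Sparcl1). Over all genes, leaving out any 1 of these clones gave 80 to 205 higher calls, against 378 with all clones.

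Among 19 genes of receptors for these proteins, 3 were called higher and 0 lower (15.8% called higher, against 1.9% of all genes). At an unadjusted limma p below 0.05, 12 were higher and 0 lower. The 3 called are the integrin genes Itgb8 (2.00-fold), Itgb1 (1.92-fold) and Itga4 (1.83-fold), with limma adjusted p-values of 0.0348, 0.0143 and 0.0295. Itgb1 encodes the beta 1 chain shared by many matrix receptors, and Itga4 and Itgb8 encode chains of a fibronectin receptor and of a receptor of latent TGF-beta. The thrombospondin receptor genes Cd47 and Cd36 were not called, at 0.54 and 0.11 on the log2 scale (limma adjusted p = 0.116 and 0.744). Cd44, a receptor of osteopontin and hyaluronan, had one of 1.45 with an SE of 0.38 and was not called (limma adjusted p = 0.0727). Itga5, of the classical fibronectin receptor, had one of -0.24 (limma adjusted p = 0.439), with every shECAD clone below every control clone. The groups did not overlap in the higher direction in 14 of the 19 receptor genes, and in the lower direction in Itga5 alone. The same counts were 8 higher and 0 lower among the 28 genes of the wider family. Among the 22 regulators described next they were 10 higher and 3 lower (Tead4, Smad7 and Smad2, none of them called). Over all genes 11.1% did not overlap in the higher direction, and the share in the lower direction was not counted. The 3 calls became 0 without control clone 4. They became 1 without control clone 3 or shECAD clone 9 (Itgb1), without shECAD clone 4 (Itga8) and without shECAD clone 8 (Itga4). Over all genes, leaving out any 1 of these clones gave 80 to 205 higher calls, against 378 with all clones.

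A list of 22 measured genes covered TGF-beta signalling and the actin-linked and mesenchymal factors known to control matrix genes. Of these, 4 were called higher and 0 lower (18.2% called higher, against 1.9% of all genes). At an unadjusted limma p below 0.05, 9 were higher and 2 lower. Prrx1, a homeobox gene of connective tissue, rose 2.94-fold, the ligand genes Tgfb3 and Tgfb2 rose 2.17-fold and 1.84-fold, and Smad3, which encodes a signal transducer of TGF-beta, rose 1.59-fold. The limma adjusted p-values were 0.0339, 0.0185, 0.0269 and 0.0467. Srf, Mrtfa and Yap1, which encode factors responsive to actin and cell tension, were not called, at 0.14, 0.10 and 0.10 on the log2 scale (limma adjusted p = 0.786, 0.778 and 0.779). The 4 calls became 0 when control clone 3 or 4, or shECAD clone 4 or 8, was left out, and 1 (Tgfb3) without shECAD clone 9. These are counts in limma, and at an unadjusted p below 0.05 the 22 genes held 9, 8, 8 and 9 higher values in the fits that gave 0. The share of all genes at that unadjusted threshold was not counted, so nothing is read from these values. Over all genes, fits without control clone 3 or 4 or 1 shECAD clone called 80 to 205 higher, against 378 with all clones. Smad3 also lost its call after median centring.

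**Figure D3:**
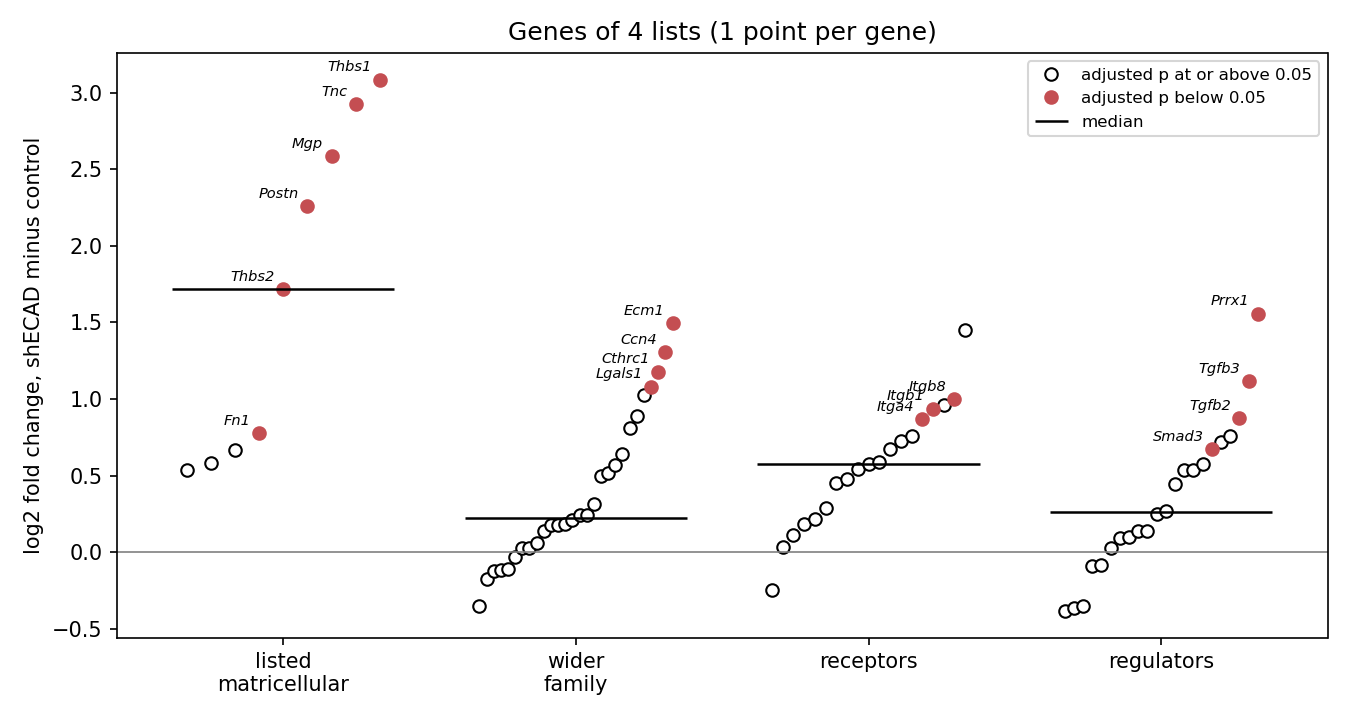
Log2 fold change (shECAD minus control, vertical axis) of each measured gene in 4 lists, sorted within a list; filled points passed an adjusted p below 0.05 in limma and are named, and lines are list medians. The medians are 1.72 for the listed genes, 0.23 for the wider family, 0.58 for the receptors and 0.26 for the regulators.

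Many markers of fibroblasts and of smooth muscle read higher in the shECAD clones, like the matricellular genes. Over all genes, 1.9% were called higher and 1.23% lower. Of 20 fibroblast and feeder markers other than the listed genes, 11 were called higher, 0 lower, and 0 lay below the 25th percentile on every array. Their mean level came to 6.33, 5.91 and 5.25 for control clones 2, 3 and 4, while shECAD clones 4, 8 and 9 averaged 6.86, 7.16 and 6.87. Lox, whose product cross-links collagen, had the largest difference (2.35), while the fibroblast genes Dcn, Pdgfra, Lum and Dpt had log2 fold changes of 0.48, 0.38, -0.23 and -0.14 and were not called. Of 6 smooth muscle and myofibroblast markers, 4 were called higher, led by Acta2 (3.42). Myh11 and Des had 0.61 and 0.18 and were not called (limma adjusted p = 0.0841 and 0.619). The mean of the 6 ranged from 5.14 to 5.80 over control clones, against 6.83 to 7.11 over shECAD clones. At an unadjusted p below 0.05 these lists held 16 of 20 and 5 of 6 higher values and 0 lower. Of 13 markers of primitive and parietal endoderm, 2 were called higher, the basement membrane collagen genes Col4a2 and Col4a1 (1.01 and 0.80), and their mean ranged from 5.07 to 5.51 over control clones, against 5.57 to 5.86. The endoderm factor genes Gata4, Gata6, Sox17 and Sox7 had log2 fold changes of 0.37, 0.59, 0.21 and 0.26 and were not called. Dab2 and Lamb1 had 0.99 and 0.53, with every shECAD clone above every control clone, and Lama1 had -0.49. These were not called either (limma adjusted p = 0.0537, 0.11 and 0.299). At an unadjusted p below 0.05 the 13 endoderm markers held 6 higher values and 0 lower. Of 5 macrophage, 4 endothelial and 5 cartilage and bone markers 0 were called by limma, with 1, 1 and 3 higher and 0, 1 and 1 lower at an unadjusted p below 0.05. The mean of the 10 pluripotency markers ranged from 9.94 to 10.19 over control clones, against 9.43 to 9.93 over shECAD clones. In RNA from whole cultures, a change in the number of cells of a type and a change in RNA per cell cannot be told apart. The part of these cell types in the differences of the matricellular genes was not tested.

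**Figure D4:**
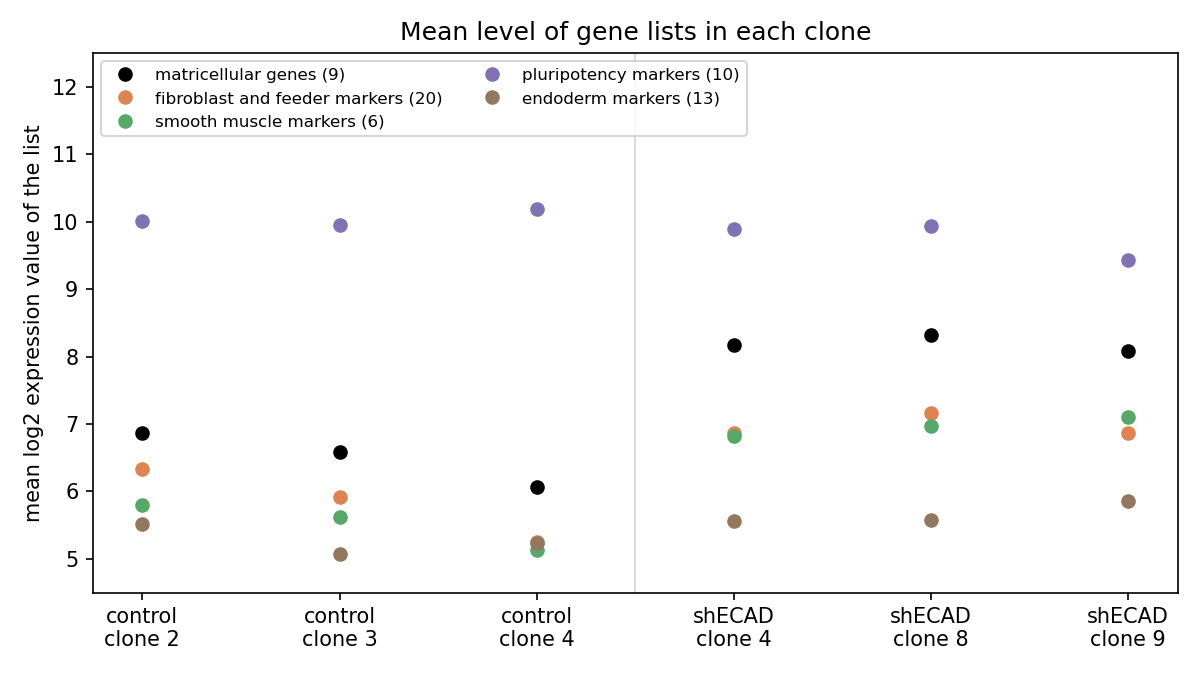
Mean log2 expression value (vertical axis) over the genes of each list in each clone (horizontal axis); lists differ in probesets, so only differences between clones within a colour can be read. The 9 matricellular genes and the fibroblast markers are both lowest in control clone 4 (6.07 and 5.25) and highest in shECAD clone 8 (8.32 and 7.16). The receptor and regulator lists, not drawn here, are also lowest in control clone 4 (5.71 and 6.42) and highest in shECAD clone 8 (6.43 and 6.91).

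The genes whose profile over the 6 clones was most like the mean of the 9 matricellular genes were B2m, Igfbp7, Fbln2, Lox and Col4a2, with Pearson correlations of 0.998, 0.996, 0.995, 0.995 and 0.994. They were taken from 765 genes at or above the median level with an SD of at least 0.5 over the clones, of which 192 reached 0.9. B2m encodes the light chain of MHC class I. For B2m, control clones 2, 3 and 4 gave 8.06, 7.86 and 7.26, while shECAD clones 4, 8 and 9 gave 9.28, 9.38 and 9.29. Its control clones thus had the same order as the mean of the matricellular genes. Fbln2, which encodes the matrix protein fibulin 2, had a log2 fold change of 2.10 and Igfbp7, which encodes a secreted IGF-binding protein, one of 2.09. With 6 points in separate groups, these correlations mostly reflect the difference between the groups, and they are given as a description.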

How the data were processed

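RNA of 6 clonal mouse iPS lines was measured on Affymetrix whole-transcript arrays. The authors deposited 1 log2 value per probeset and array. The submitters' processing notes name RMA and Partek. Neither versions nor a genome build were stated in the sources used. Values were used as deposited (28853 probesets, values from 0.949 to 14.04). Probesets were named through the platform annotation: 21789 had 1 gene symbol, 1621 several and 5443 none, and 21698 of the first matched RefSeq (GRCm38.p6) by Entrez identifier. Only those with 1 symbol were used, with the brightest per gene, which gave 19938 genes with no filter on dim probesets.

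Groups were compared with limma 3.58.1 (lmFit, eBayes) in R 4.3.3 over all genes, with no covariate and Benjamini-Hochberg adjustment over all genes. An adjusted p below 0.05 was a call. The fit was tested on simulated data. Members and gene lists were chosen with earlier results of these data known. Named are all members, Cdh1, in each list up to 4 called genes of largest change, the leading markers and the 5 closest profiles. Other list genes were named after their values were seen. Runx2, Fbn1 and Bglap had no named probeset. Alternatives covered centring, quantile normalization, a filter, averaged probesets, the variance prior, array weights, the threshold and left-out clones. Figures were drawn with matplotlib 3.10.9.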

Additional observations from a re-analysis of the deposited data

How the results depend on the processing

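Of 271 alternative values over 15 settings, 0 reversed. This shows little, since a count could not be labelled as reversed. Settings that change only the variance or the set of tested genes leave a gene's log2 fold change as it was. Leaving out a clone cannot turn the sign of a gene whose groups do not overlap. Keeping only brighter genes left out Postn and Smoc2. The groups did not overlap in 8 of 9 genes after median centring, Sparc being the exception, and in 9 of 9 after quantile normalization. The other alternatives could not make the groups of a kept gene overlap. With limma's variance moderation left out, 0 genes were called in the matricellular genes and in each of the 3 other lists. Over all 19938 genes that fit called 1 higher and 2 lower, so the loss of calls was not particular to these lists. At an unadjusted p below 0.05 in the higher direction it held 8 of the 9, 8 of 28, 10 of 19 and 9 of 22. There Cdh1 kept its log2 fold change of -2.13, which was no longer called (adjusted p = 0.194). With array weights 7 genes of the wider family and 7 receptor genes were called, against 3.23% of all genes called higher. At an adjusted p below 0.1 the counts were 7 in the wider family, 8 among the receptors and 7 among the regulators. Of all genes, 3.56% were then called higher. The cause of these changes was not tested.

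With 1 clone left out, the matricellular genes called numbered 3 (Thbs1, Postn and Mgp, without shECAD clone 8) to 6, the wider family 1 to 4, the receptors 0 (without control clone 4, where 12 had an unadjusted p below 0.05) to 3 and the regulators 0 to 5. Fewer clones are fitted in each of these. Over all genes these fits called 80 (0.401%, without shECAD clone 8) to 378 (1.9%, without control clone 2) higher. With all clones, 378 were called higher and 245 lower, and after median centring 298 and 383. No list held a call in the lower direction in any of these fits, and with all clones, at an unadjusted p below 0.05, limma gave 0 lower among the 9, 0 of 28, 0 of 19 and 2 of 22. No paired analysis was possible because the clone numbers name colonies and the groups share only the number 4. No limit on weak signal beyond the array percentiles given was set.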
